A study of Mus musculus with 48 samples.

Results

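The lysosomal cathepsins described here are 9 genes, Ctsa, Ctsb, Ctsc, Ctsd, Ctsh, Ctsk, Ctsl, Ctss and Ctsz, taken by name from the 18782 genes of the count table, and all 9 passed the filter on low counts that left 14431 genes for testing. The RNA came from thoracic aortas of 48 wild-type C57BL/6J mice, and each mouse gave 1 library. Control mice drank normal water and formed the groups MaCon (males, n = 10) and FeCon (females, n = 10). The others drank water with 0.4% β-aminopropionitrile (BAPN), an inhibitor of the lysyl oxidases that cross-link collagen and elastin, for 28 days from 3 weeks of age. At the end, BAPN mice without microscopically detectable lesions formed MaNonAD (n = 4) and FeNonAD (n = 8), and those with aortic dissection or aneurysm formed MaAAD (n = 7) and FeAAD (n = 9). Only mice that survived to the end entered these groups, and the study reports more deaths from rupture among BAPN males than BAPN females. The AAD and NonAD groups were therefore split by outcome and not by assignment, and the study's methods describe RNA from lesioned segments, so that outcome and the piece of vessel taken cannot be told apart.

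Cathepsins are proteases that are made as inactive precursors, carried to the lysosome largely by mannose 6-phosphate receptors, and activated there by acid and by other proteases. Most are cysteine proteases of the papain type, whereas cathepsin D is an aspartic protease and cathepsin A a serine carboxypeptidase. Several are also secreted by macrophages, smooth muscle cells and osteoclasts. Cathepsins S, K and L can cut elastin, cathepsin K also cuts native fibrillar collagen, and both proteins carry the load of the aortic wall.

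Library totals ranged from 13548003 to 17281262 counts, and the lowest count of any member in any library was 142, for Ctss in the library FeCon4. The deposited values were whole numbers for 8 of the 9 members in every library, and Ctsl was not whole in 2 libraries. Expression is given as CPM, the count scaled to a common library size with TMM factors, and fold changes are on the log2 scale. Exons of 5 members overlap exons of another gene in the GENCODE M21 annotation, Ctsa those of Neurl2 and Pltp, Ctsb Fdft1, Ctsd Gm49369, Ctsl Gm47123 and Gm49230, and Ctsz Nelfcd. The libraries were strand-specific, but the strand setting of the counting is not given in the sources used here, so these 5 values may hold reads of the partner gene. No such overlap was found for Ctsc, Ctsh, Ctsk and Ctss. The 8 smooth muscle markers were abundant in every library, with sums between 11833 and 60211 CPM. Libraries FeAAD5 and MaAAD7 stood apart in markers of macrophages and neutrophils, and FeNonAD8 led its group in macrophage markers. MaAAD7 also held 483 CPM of heart muscle markers against a MaAAD median of 78.3. Its skeletal muscle markers stood at 38.0 CPM against a median of 4.61. Values without FeAAD5, MaAAD7 or FeNonAD8 are given beside many of the results.

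Sequence in front of the start is shown for Ctss, Ctsc and Ctsk, the members with the largest changes in AAD, and around single matches for Ctss, Ctsd and Ctsa, because promoters hold the sites through which myeloid and lysosomal transcription factors are known to act. RefSeq promoters on GRCm38.p6 were found for 7 members, with 8 promoters in all since Ctsa has 2, and none for Ctsb and Ctsh. In these windows of 250 bases before and 50 after the start, 3 motifs were searched on both strands. GAGGAAGT is a core bound by PU.1, the factor that directs myeloid genes. TCACGTGA is the palindromic core of the CLEAR element bound by TFEB and its relatives at lysosomal genes, and it contains the E-box CACGTG. In the sequences, capitals mark a match, on the other strand for GAGGAAGT. The 250 bases before the start are given for Ctss (chr3:95526536-95526785, plus strand), Ctsc (chr7:88277835-88278084, plus strand) and Ctsk (chr3:95498960-95499209, plus strand), and no annotated exon lies in them.
Ctss: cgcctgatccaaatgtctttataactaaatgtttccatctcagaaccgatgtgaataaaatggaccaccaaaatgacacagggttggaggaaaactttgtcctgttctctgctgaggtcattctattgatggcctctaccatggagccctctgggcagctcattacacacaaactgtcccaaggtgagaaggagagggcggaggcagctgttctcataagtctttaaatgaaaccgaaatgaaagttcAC
Ctsc: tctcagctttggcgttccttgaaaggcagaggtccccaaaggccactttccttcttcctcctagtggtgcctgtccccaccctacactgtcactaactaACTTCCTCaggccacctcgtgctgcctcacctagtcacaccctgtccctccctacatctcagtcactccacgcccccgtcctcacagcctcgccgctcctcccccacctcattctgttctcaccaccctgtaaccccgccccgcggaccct
Ctsk: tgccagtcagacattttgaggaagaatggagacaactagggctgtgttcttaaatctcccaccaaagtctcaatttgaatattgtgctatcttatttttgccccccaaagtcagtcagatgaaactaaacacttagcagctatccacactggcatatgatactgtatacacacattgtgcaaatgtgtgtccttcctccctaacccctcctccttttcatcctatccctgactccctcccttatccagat

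The PU.1 core lay in the Ctss promoter across the start itself, with its first base at -2 counted from the start, and in the Ctsc promoter with its first base at -151. No other member promoter held it, and 3.20% of the 32851 promoters in the table did. The CLEAR core lay in the Ctsd promoter at -99 and in the second Ctsa promoter at -13 and again just after the start, against 0.974% of all promoters. In the GENCODE M21 annotation the matches at -99 and -13 lie inside exons of Ctsd and Ctsa themselves. An exon of Ctsl also reaches into the Ctsl window before the start, and an exon of Neurl2 into that of the first Ctsa promoter. Outside a CLEAR core, the E-box was found in the Ctsl promoter at -236 and in the Ctsd promoter at -245, and 7.15% of all promoters held an E-box inside or outside a CLEAR core. The promoters of Ctsk and Ctsz and the first of Ctsa held none of these letters. Windows of 30 bases around the Ctss match and the CLEAR cores of Ctsd and Ctsa were as follows.
Ctss: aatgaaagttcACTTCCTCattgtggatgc
Ctsd: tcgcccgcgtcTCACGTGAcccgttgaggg
Ctsa: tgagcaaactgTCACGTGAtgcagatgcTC
A match describes these letters only, and binding was not measured.

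Per length of the longest transcript, so that genes can be compared, Ctsd was the most abundant member with a mean level of 527 CPM per kb over the 48 libraries, followed by Ctsb at 323 and Ctsz at 150.2. Ctsl at 81.3, Ctsa at 79.8 and Ctsh at 76.4 CPM per kb followed as neighbours that did not differ beyond their spread between libraries. In MaCon, for example, Ctsl stood at 67.8 ± 8.17, Ctsa at 80.2 ± 16.7 and Ctsh at 70.0 ± 15.7 CPM per kb (SD, n = 10). This holds for the longest transcript only, since with the longest CCDS transcript (one with a consensus coding sequence, 1617 in place of 2743 bases for Ctsh) Ctsh stood at 129.7 CPM per kb over all libraries and 119 ± 26.6 in MaCon (SD, n = 10), which put it at rank 4, above Ctsl. Ctss at 56.8, Ctsk at 45.6 and Ctsc at 33.4 CPM per kb were the lowest by the mean over all libraries. In MaCon the mean levels of these 3 were 13.8 ± 3.14 for Ctss, 16.8 ± 2.98 for Ctsc and 30.5 ± 6.10 for Ctsk, whereas in MaAAD they were 136 ± 111 for Ctss, 60.7 ± 36.1 for Ctsc and 70.2 ± 24.1 CPM per kb for Ctsk.

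**Figure D1:**
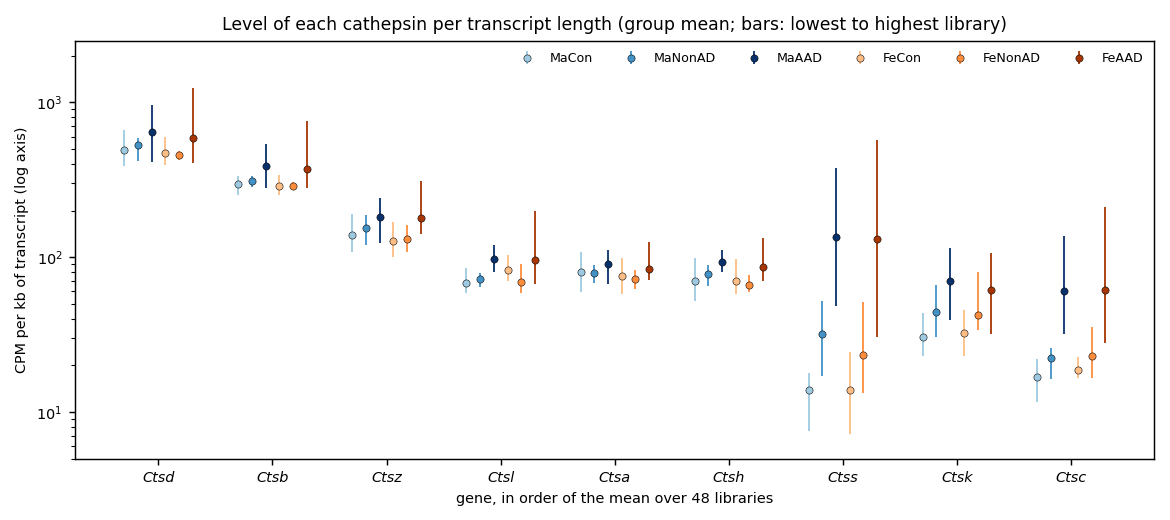
The points give the mean level of each cathepsin in each of the 6 groups in CPM per kb of transcript on a log axis, and the bars run from the lowest to the highest library. Ctsd and Ctsb lead in every group, and Ctss, Ctsk and Ctsc lie lowest in the controls, with Ctss above Ctsk in the mean of both AAD groups.

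The order of these 3 was also counted library by library. Ctss was above Ctsc per kb in 2 of 10 MaCon, 3 of 4 MaNonAD and 7 of 7 MaAAD libraries. In females the same was found in 2 of 10 FeCon, 2 of 8 FeNonAD and 9 of 9 FeAAD libraries. This order in controls turned with the length used, because the union of exons of Ctsc is 5808 bases against 3220 for its longest transcript. With exon unions Ctss was above Ctsc in 10 of 10 MaCon, 4 of 4 MaNonAD, 9 of 10 FeCon and 8 of 8 FeNonAD libraries, and the median ratio of Ctss to Ctsc was 1.40 in MaCon and 3.98 in MaAAD, in place of 0.775 and 2.21. Ctss was above Ctsk in 0 of 20 control and 0 of 12 NonAD libraries, but in 5 of 7 MaAAD and 5 of 9 FeAAD libraries. The median ratio of Ctss to Ctsk went from 0.446 in MaCon to 1.62 in MaAAD, and from 0.404 in FeCon to 1.03 in FeAAD. The counts of Ctss above Ctsk were the same with exon unions.

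Most of the cathepsin RNA in the aorta came from a pair of genes, Ctsb and Ctsd. The 9 genes together summed to 3684 ± 501 CPM in MaCon (SD, n = 10) and 5151 ± 1252 in MaAAD (SD, n = 7), and to 3662 ± 418 in FeCon (SD, n = 10) and 4877 ± 2055 in FeAAD (SD, n = 9). Without FeAAD5, which summed to 10259 CPM, FeAAD stood at 4205 ± 414 (SD, n = 8), and without MaAAD7 MaAAD stood at 4825 ± 994 CPM (SD, n = 6). Ctsb held 38.6% of this sum in MaCon and 36.0% in MaAAD, and Ctsd 28.3% and 26.4%. The share of Ctss went from 0.513% in MaCon to 3.26% in MaAAD, and from 0.524% in FeCon to 3.00% in FeAAD, with 2.61% in MaAAD without MaAAD7 and 2.44% in FeAAD without FeAAD5. Ctss thus moved most among the members in both sexes, from the smallest share in the controls.

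Between AAD and control aortas, 6 of the 9 members were higher in FeAAD than in FeCon and 7 of 9 in MaAAD than in MaCon, at an adjusted p under 0.05 by edgeR over all tested genes. None was lower. Of all tested genes, 23.8% were higher in the female and 18.9% in the male comparison. The members that were also DEGs, with a log2 fold change of at least 1, were Ctss and Ctsc in females and Ctss, Ctsc and Ctsk in males, beside 9.94% and 9.18% of all genes. The median log2 fold change of the members was 0.36 in females and 0.40 in males, and that of all genes 0.00 and -0.03. Without FeAAD5 the female median of the members was 0.21. In both sexes Ctss had the largest value, followed by Ctsc and then Ctsk, with Ctsl, Ctsb, Ctsz, Ctsh, Ctsd and Ctsa all at or under 0.53.

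**Figure D2:**
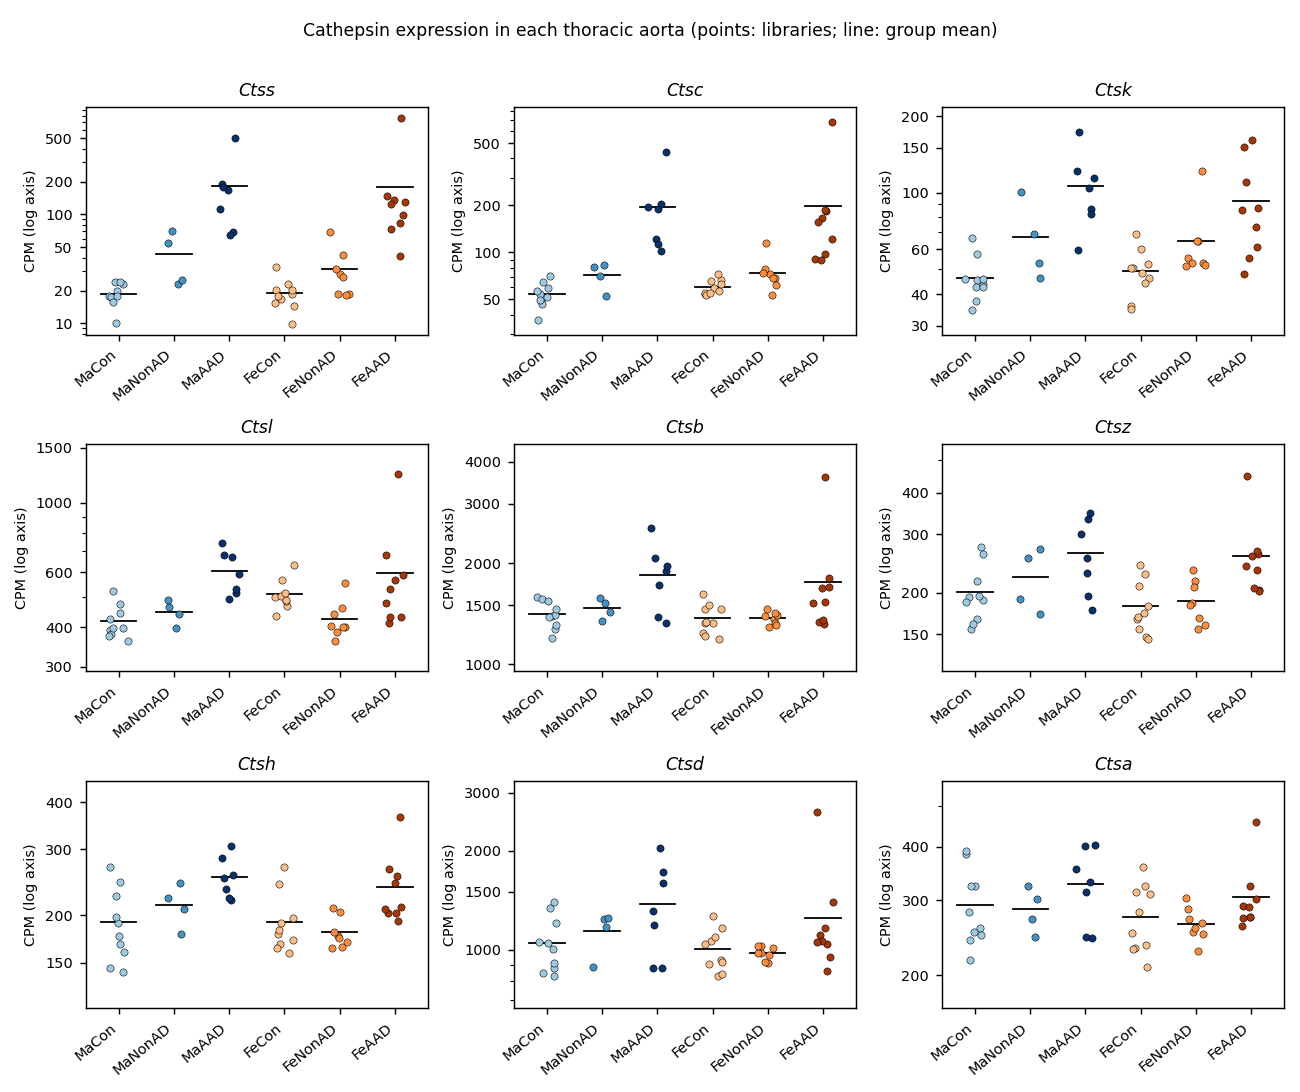
Each panel shows a cathepsin, with CPM on a log axis and the 6 groups along the horizontal axis; points are single aortas and lines are group means. Ctss and Ctsc separate the AAD groups from the controls without overlap, Ctsk nearly does so in males, and the other 6 genes overlap between groups.

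Ctss encodes cathepsin S, an elastin-cutting cysteine protease that keeps its activity at neutral pH and processes the invariant chain of MHC class II in antigen-presenting cells. The gene lies on chr3:95526786-95556403 (GRCm38, plus strand), next to Ctsk, with 17423 bases and no annotated gene between them. In females, Ctss ran from 9.83 to 33.1 CPM in FeCon (median 18.2), from 18.1 to 69.5 in FeNonAD (median 27.4) and from 41.4 to 769 in FeAAD (median 123). In males it ran from 10.2 to 24.0 CPM in MaCon (median 17.8) and from 65.3 to 507 in MaAAD (median 166). The 4 MaNonAD libraries stood at 70.7, 23.2, 54.4 and 24.8 CPM.

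Every AAD library of either sex was above every control library of that sex, a separation that 3.63% of all genes showed in females and 6.14% in males. The highest AAD libraries, FeAAD5 and MaAAD7, stood far above the next ones at 149 and 190.2 CPM. The log2 fold change was 3.24 (SE 0.39, adjusted p = 9.82e-09) in FeAAD and 3.30 (SE 0.41, adjusted p = 2.97e-08) in MaAAD against the controls, which is 9.42-fold and 9.85-fold. Without FeAAD5 the female value was 2.46 (adjusted p = 2.13e-08), and without MaAAD7 the male value was 2.80 (adjusted p = 4.1e-07).

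Between AAD and NonAD, Ctss was higher by 2.50 (SE 0.41, adjusted p = 9.96e-05) in females, and by 1.72 without FeAAD5 (adjusted p = 0.000748). In 8 of 9 FeAAD libraries it lay above the highest FeNonAD library, FeNonAD8. In males the difference was 2.09 (SE 0.55, 95% interval 0.99 to 3.19) with an adjusted p of 0.0502, just outside the threshold, and 5 of 7 MaAAD libraries lay above all MaNonAD ones. It passed without MaNonAD1 (2.43, adjusted p = 0.0303), MaAAD1 (2.16, adjusted p = 0.0157), MaAAD2 (2.23, adjusted p = 0.0344) or MaAAD4 (2.24, adjusted p = 0.0338), and was at 1.59 without MaAAD7 (adjusted p = 0.188). Between NonAD and control, Ctss differed by 0.74 (95% interval -0.03 to 1.51, adjusted p = 0.193) in females and by 1.21 (95% interval 0.29 to 2.13, adjusted p = 0.234) in males, and neither passed. Of the NonAD libraries, 2 of 8 in females and 3 of 4 in males lay above every control, the highest being FeNonAD8 and MaNonAD1. Without FeNonAD8 the female difference was 0.47 (adjusted p = 0.459).

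Ctsc encodes cathepsin C, also called dipeptidyl peptidase I, which activates the granule serine proteases of neutrophils, mast cells and cytotoxic lymphocytes. The gene lies on chr7:88278085-88310888 (GRCm38, plus strand). It ran from 53.2 to 73.2 CPM in FeCon (median 57.9), from 53.0 to 114 in FeNonAD (median 70.6) and from 89.2 to 679 in FeAAD (median 156). In males it ran from 37.1 to 70.6 CPM in MaCon (median 53.2) and from 103 to 441 in MaAAD (median 191), with 83.1, 52.8, 80.5 and 70.3 CPM in MaNonAD. As for Ctss, no AAD library fell into the control range, and FeAAD5 and MaAAD7 were the highest.

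The log2 fold change of Ctsc was 1.71 (SE 0.26, adjusted p = 6.79e-07) in FeAAD against FeCon and 1.86 (SE 0.27, adjusted p = 5.9e-07) in MaAAD against MaCon. Without FeAAD5 it was 1.18 (adjusted p = 1.9e-06), and without MaAAD7 1.52 (adjusted p = 1.15e-05). Against FeNonAD, FeAAD was higher by 1.41 (SE 0.28, adjusted p = 0.000261), and by 0.89 (adjusted p = 0.00204) without FeAAD5, where Ctsc was no longer a DEG. MaAAD exceeded MaNonAD by 1.45 (95% interval 0.71 to 2.19, adjusted p = 0.0502), and all 7 MaAAD libraries lay above all 4 MaNonAD libraries. Ctsc passed there without MaNonAD1 (1.53, adjusted p = 0.0346), MaAAD1 (1.54, adjusted p = 0.0118), MaAAD2 (1.54, adjusted p = 0.0344) or MaAAD4 (1.54, adjusted p = 0.0322). Over all 18 alternatives, these among them, its value ran from 1.11 to 1.54 and passed in 8. A separation of all MaAAD from all MaNonAD libraries was found in 2.97% of all genes and in 2 members, Ctsc and Ctsl. Between NonAD and control, Ctsc differed by 0.30 (adjusted p = 0.475) in females and 0.41 (adjusted p = 0.671) in males, and the female value was 0.18 without FeNonAD8 (adjusted p = 0.709).

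Ctsk encodes cathepsin K, the main collagen-cutting protease of osteoclasts, which also cuts elastin and is known from smooth muscle cells and fibroblasts of diseased arteries. The gene lies on chr3:95499256-95509362 (GRCm38, plus strand). In females it ran from 34.8 to 68.7 CPM in FeCon (median 49.3), from 51.5 to 122 in FeNonAD (median 54.2) and from 48.0 to 161 in FeAAD (median 85.8). In males it ran from 34.6 to 66.2 CPM in MaCon (median 44.7) and from 59.6 to 173 in MaAAD (median 105), with 100.5, 53.1, 68.8 and 46.4 CPM in MaNonAD. The AAD and control ranges overlapped, with 6 of 9 FeAAD and 6 of 7 MaAAD libraries above all controls. The libraries with the most Ctsk, MaAAD1, FeAAD6 and FeAAD7, were not those with the most Ctss and Ctsc, and FeAAD5 and MaAAD7 ranked 14 and 13 of 48 for Ctsk.

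The log2 fold change of Ctsk was 0.91 (SE 0.20, adjusted p = 0.000181) in FeAAD and 1.20 (SE 0.21, adjusted p = 1.04e-05) in MaAAD against the controls. It stayed at 0.95 without FeAAD5 and 1.25 without MaAAD7, and both passed. Against NonAD it was 0.52 (95% interval 0.11 to 0.94, adjusted p = 0.0714) in females and 0.66 (95% interval 0.11 to 1.21, adjusted p = 0.17) in males, and neither passed. The female value rose to 0.72 (adjusted p = 0.00821) without FeNonAD8, the library that held 122 CPM while the other FeNonAD libraries reached at most 64.4. It also passed without FeAAD3 (0.59, adjusted p = 0.0346) and without FeAAD9 (0.61, adjusted p = 0.0381). Between NonAD and control, Ctsk differed by 0.39 (adjusted p = 0.194) in females and 0.54 (adjusted p = 0.347) in males. Without FeNonAD8 and without MaNonAD1, the highest library of each group, these values were 0.19 (adjusted p = 0.561) and 0.28 (adjusted p = 0.907).

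**Figure D3:**
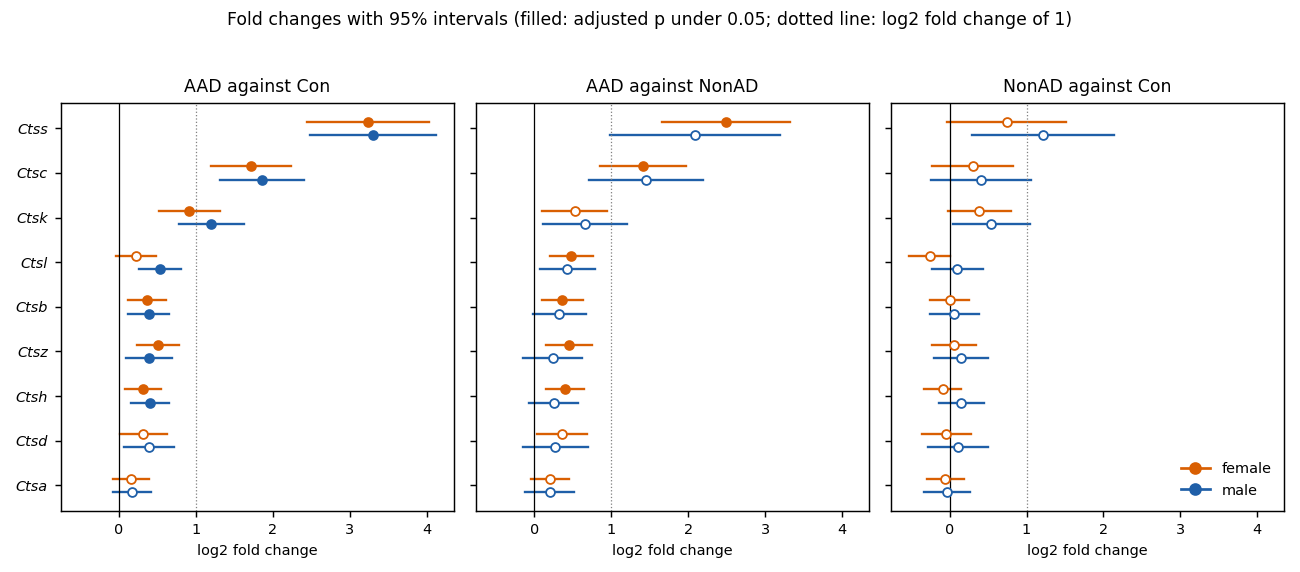
The points are log2 fold changes of each cathepsin in females and males with 95% intervals, in panels for AAD against control, AAD against NonAD and NonAD against control; filled points passed at an adjusted p under 0.05. Ctss and Ctsc lie farthest to the right in both panels that involve AAD, and no point of the NonAD against control panel is filled.

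Ctsl encodes cathepsin L, a broad lysosomal endopeptidase that cuts elastin and matures other lysosomal enzymes, and the gene lies on chr13:64359337-64370890 (GRCm38, minus strand). It ran from 434 to 633 CPM in FeCon (median 503), from 362 to 555 in FeNonAD (median 403) and from 413 to 1233 in FeAAD (median 530.0). In males it ran from 362 to 524 CPM in MaCon (median 399) and from 493 to 743 in MaAAD (median 591), with 464, 441, 490.1 and 398 CPM in MaNonAD. The median control level was higher in females, where 5 of 8 FeNonAD libraries lay below every control and none above, and of 9 FeAAD libraries 2 lay above and 3 below. In males 5 of 7 MaAAD libraries lay above every control and none below, and of 4 MaNonAD libraries none lay above or below. The log2 fold change was 0.53 (SE 0.14, adjusted p = 0.00197) in MaAAD against MaCon, but 0.22 (95% interval -0.04 to 0.48, adjusted p = 0.163) in FeAAD against FeCon. The test of that sex difference gave 0.31 (95% interval -0.07 to 0.69, adjusted p = 0.438), which did not pass. Without FeAAD5 the female fold change was 0.01 (adjusted p = 0.923) and the sex difference 0.52 (adjusted p = 0.0337). Against FeNonAD, FeAAD was higher by 0.48 (SE 0.14, adjusted p = 0.0109), and by 0.27 (adjusted p = 0.0731) without FeAAD5.

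Ctsb encodes cathepsin B, an endopeptidase that also trims pairs of residues from the end of proteins, and the gene lies on chr14:63122462-63145923 (GRCm38, plus strand). It ran from 1192 to 1621 CPM in FeCon (median 1335) and from 1322 to 3617 in FeAAD (median 1529), where the second library reached 1804. In males it ran from 1203 to 1583 CPM in MaCon (median 1398) and from 1328 to 2552 in MaAAD (median 1889). The NonAD libraries of both sexes lay between 1295 and 1579 CPM, inside the control ranges. Ctsb was higher by 0.36 (SE 0.12, adjusted p = 0.0143) in FeAAD and 0.39 (SE 0.13, adjusted p = 0.0191) in MaAAD against the controls. Neither call held without the highest library, with 0.16 (adjusted p = 0.146) without FeAAD5 and 0.29 (adjusted p = 0.0958) without MaAAD7. The female call was also lost in a fit of FeAAD and FeCon alone (0.38, adjusted p = 0.0703).

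Ctsz and Ctsh encode exopeptidases, cathepsin Z (also named X), which removes single residues from the carboxyl end, and cathepsin H, an aminopeptidase. Ctsz lies on chr2:174427493-174439039 (minus strand) and Ctsh on chr9:90054152-90076089 (plus strand, both GRCm38). Ctsz ran from 145 to 242 CPM in FeCon (median 172) and from 203 to 448 in FeAAD (median 240.1), and from 156 to 275 in MaCon (median 192) and 178 to 347 in MaAAD (median 255). Ctsh ran from 159 to 268 CPM in FeCon (median 180.4) and from 194 to 365 in FeAAD (median 211), and from 142 to 269 in MaCon (median 184) and 219 to 306 in MaAAD (median 252). The ranges overlapped for both genes in both sexes. Ctsz was higher by 0.50 (adjusted p = 0.00246) in FeAAD, also without FeAAD5 at 0.37 (adjusted p = 0.0175), and by 0.39 (adjusted p = 0.0338) in MaAAD, a call lost without MaAAD7 at 0.31 (adjusted p = 0.118). The male call of Ctsz was also lost without MaCon1 (0.35, adjusted p = 0.0604), MaCon8 (0.36, adjusted p = 0.0608), MaAAD1 (0.34, adjusted p = 0.0767) or MaAAD5 (0.36, adjusted p = 0.0722). Ctsh was higher by 0.31 (adjusted p = 0.0246) in FeAAD, a call lost without FeAAD5 at 0.21 (adjusted p = 0.114) and in a fit of the compared groups alone at 0.33 (adjusted p = 0.0530), and by 0.40 (adjusted p = 0.00848) in MaAAD, also without MaAAD7 at 0.35 (adjusted p = 0.0317).

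Ctsd and Ctsa, the aspartic and serine members, did not pass by edgeR in either sex, while DESeq2 called Ctsd in males (0.41, adjusted p = 0.0418). Ctsd lies on chr7:142375911-142388038 (minus strand) and encodes the main aspartic protease of the lysosome. Ctsa, on chr2:164832873-164841032 (plus strand, both GRCm38), encodes the carboxypeptidase that protects β-galactosidase and neuraminidase in a complex. Ctsd ran from 832 to 1265 CPM in FeCon (median 984) and from 861 to 2615 in FeAAD (median 1059), and from 829.6 to 1400.0 in MaCon (median 1025) and 877 to 2038 in MaAAD (median 1307). Ctsa ran from 209.6 to 358 CPM in FeCon (median 267) and from 260.3 to 458 in FeAAD (median 289.7), and from 217 to 391 in MaCon (median 269.9) and 245 to 404 in MaAAD (median 331). For Ctsd 2 of 9 FeAAD and 3 of 7 MaAAD libraries lay above every control, and for Ctsa 1 of 9, FeAAD5, and 2 of 7. The change in Ctsd was 0.31 (95% interval 0.01 to 0.62, adjusted p = 0.0876) in FeAAD and 0.39 (95% interval 0.06 to 0.71, adjusted p = 0.0571) in MaAAD. By edgeR Ctsd passed in females without FeAAD3 (0.37, adjusted p = 0.0453), and in males without MaCon5, MaCon6, MaCon10, MaAAD2, MaAAD3 or MaAAD4 at values from 0.43 to 0.47 (adjusted p from 0.0209 to 0.0485). Without FeAAD5 the female value of Ctsd was 0.10 (adjusted p = 0.546). The change in Ctsa was 0.15 (95% interval -0.08 to 0.38, adjusted p = 0.297) and 0.17 (95% interval -0.08 to 0.41, adjusted p = 0.309), and in females 0.059 without FeAAD5 (adjusted p = 0.704). These are the members whose promoters held the CLEAR core.

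Between the BAPN groups of females, 6 of 9 members were higher in FeAAD than in FeNonAD by edgeR, namely Ctss, Ctsc, Ctsl, Ctsh, Ctsz and Ctsb, beside 13.2% of all tested genes. Ctss and Ctsc were DEGs, as were 6.79% of all genes in that direction. The smaller changes were 0.48 for Ctsl, 0.45 for Ctsz (adjusted p = 0.0261), 0.40 for Ctsh (adjusted p = 0.0174) and 0.36 for Ctsb (adjusted p = 0.0462). Without FeAAD5 the count fell to 2, Ctsc and Ctss, with 0.27 for Ctsl, 0.31 for Ctsz (adjusted p = 0.133), 0.30 for Ctsh (adjusted p = 0.0811) and 0.16 for Ctsb (adjusted p = 0.313). In a fit of these groups alone, Ctsl (0.49, adjusted p = 0.111), Ctsb (0.37, adjusted p = 0.172) and Ctsz (0.46, adjusted p = 0.0602) no longer passed. Ctsd, which did not pass, was at 0.36 with and 0.14 without FeAAD5, and Ctsa and Ctsk, which did not pass either, were at 0.21 and 0.52. The call of Ctsb was also lost without any 1 of FeNonAD1 to FeNonAD7, FeAAD2 or FeAAD9 (0.35 to 0.37, adjusted p from 0.0551 to 0.0790), and that of Ctsz without FeNonAD2 (0.41, adjusted p = 0.0581) or FeNonAD4 (0.42, adjusted p = 0.0561). In males, MaAAD against MaNonAD, no member passed by edgeR, beside 0.409% of all genes, whereas 4 members, Ctsc, Ctsk, Ctsl and Ctss, had an unadjusted p under 0.05, as did 18.7% of all genes. DESeq2 called 2 members there, Ctsc and Ctss, beside 781 of 14642 genes. In that comparison the lowest adjusted p of any gene by edgeR was 0.0497, and all 9 members were higher in MaAAD, from 0.20 for Ctsa to 2.09 for Ctss. Between these lay Ctsz at 0.24, Ctsh at 0.25, Ctsd at 0.27, Ctsb at 0.33, Ctsl at 0.43, Ctsk at 0.66 and Ctsc at 1.45. The female and male tests share no libraries, but each sex's AAD group enters both of its own comparisons.

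Between BAPN without a lesion and control, no member passed in the model of all 6 groups. In FeNonAD against FeCon edgeR and DESeq2 each called 0 members, none had an unadjusted p under 0.05 beside 28.9% of all genes, and 14.5% of all genes passed. The log2 fold changes lay between -0.26 for Ctsl (95% interval -0.53 to 0.01) and 0.74 for Ctss, with Ctsh at -0.09, Ctsa at -0.054, Ctsd at -0.042, Ctsb at 0.0019 and Ctsz at 0.054. In MaNonAD against MaCon both tools again called 0 members, beside 0.624% of all genes by edgeR, and Ctsk and Ctss had an unadjusted p under 0.05, as did 12.0% of all genes. Ctsa stood at -0.033 there, Ctsb at 0.059, Ctsl at 0.10, Ctsd at 0.11, and Ctsh and Ctsz both at 0.15. The upper bounds of the intervals for Ctss were 1.51 in females and 2.13 in males, so that a change of 2-fold lay within both. In a fit of the compared groups alone, Ctss passed in both sexes, with 0.75 and an adjusted p of 0.0493 in females, and with 1.22 and an adjusted p of 0.0307 in males, where it was a DEG.

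Between the sexes, edgeR called 0 members in the model of all 6 groups, and DESeq2 likewise 0. In a fit of the control groups alone Ctsl passed at -0.29 (adjusted p = 0.0151), and the sex difference of Ctsl in AAD against control passed without FeAAD5, as given above. MaCon and FeCon differed by -0.29 for Ctsl (adjusted p = 0.112) to 0.14 for Ctsz, with Ctsl alone at an unadjusted p under 0.05, beside 29.1% of all genes, and 14.3% of all genes passing. MaNonAD and FeNonAD differed by -0.04 for Ctsc to 0.45 for Ctss, and MaAAD and FeAAD by -0.01 for Ctsc to 0.20 for Ctsk, where 0.0624% and 0.0901% of all genes passed. No member had an unadjusted p under 0.05 in these comparisons, beside 6.47% and 2.22% of all genes. The sex difference in the response was tested as an interaction, with 0.02 to 0.47 for NonAD against control, -0.12 to 0.31 for AAD against control and -0.41 to 0.13 for AAD against NonAD. These tests called 0.416%, 1.34% and 0% of all genes. No member had an unadjusted p under 0.05 in any of them, beside 12.1%, 15.4% and 1.04% of all genes. The interval of the AAD response difference for Ctss ran from -1.03 to 1.16, so a sex difference of 2-fold in either direction cannot be told from none.

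Single libraries carried much of the spread. FeAAD5 ranked first of the 48 libraries for 8 of 9 members, Ctsk being the other, and MaAAD7 ranked 2 or 3 for the same 8. Within FeAAD the coefficient of variation was 126% for Ctss and 94.0% for Ctsc, and without FeAAD5 it was 35.0% and 30.3%. For Ctsk it was 43.8% with and 45.0% without FeAAD5. FeNonAD8 was the highest FeNonAD library for 8 of 9 members. Among the controls, FeCon7 was the highest FeCon library for 7 of 9 members but ranked 45 of 48 for Ctss, and MaCon5 and MaCon10 were each highest for 4 members. MaCon2 and MaCon8 were each the lowest MaCon library for 4 members, and MaCon2 ranked 47 or 48 of 48 for Ctsa, Ctsb, Ctsd and Ctsh. MaCon2 also stood apart in markers of T and NK cells, with a sum of 209 CPM against a MaCon median of 13.4, and of thymocytes, with 131 against 25.9 CPM, and their part in its cathepsin levels was not tested.

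**Figure D4:**
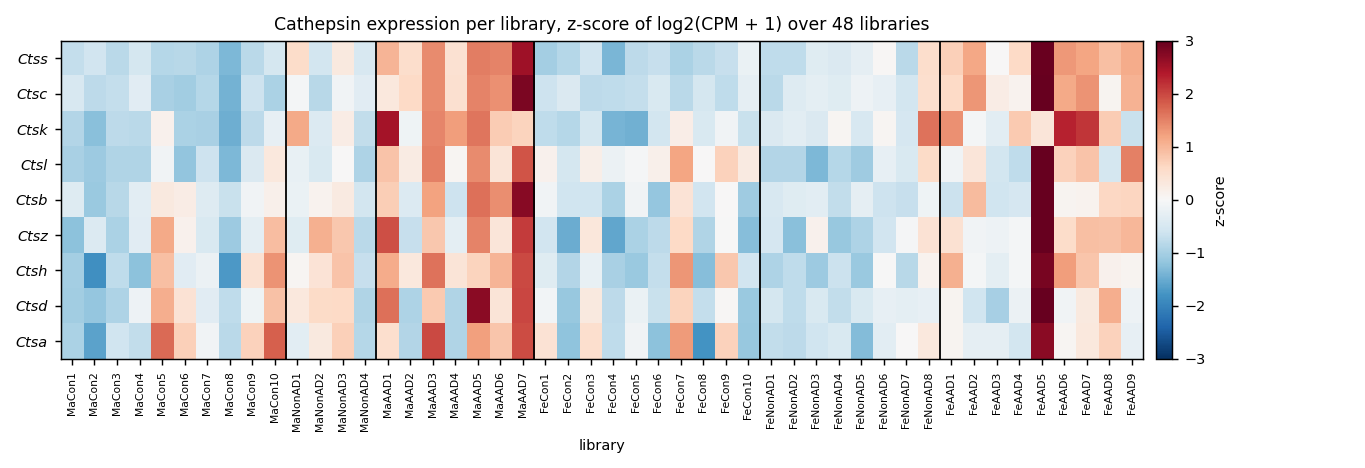
Rows are the 9 cathepsins, columns the 48 libraries in their groups, and colour is the z-score of log2(CPM + 1) over all libraries, limited at 3 in either direction. FeAAD5 and MaAAD7 are dark red columns for all genes but Ctsk, and the rows of Ctss and Ctsc change from blue to red between the control and AAD groups of both sexes.

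Macrophages are a rich source of cathepsins, and their markers moved with the same libraries. All 13 macrophage markers were in the table and none was at 0 in any group. Their summed level was 477 to 806 CPM in MaCon, 745 to 1119 in MaNonAD and 1165 to 4616 in MaAAD, and 515 to 901 in FeCon, 560.2 to 1324 in FeNonAD and 906 to 6591 in FeAAD. The highest sums were those of MaAAD7, FeNonAD8 and FeAAD5 in their groups. In both sexes 12 of 13 markers were higher and 1, Mertk, lower in AAD than in control, with a median log2 fold change of 1.79 in females and 2.15 in males, and of 1.297 without FeAAD5 and 1.92 without MaAAD7, where the same numbers passed. The largest rises were those of Fcgr1, an Fc receptor, by 3.43 in females (adjusted p = 5.02e-08) and Itgam, an integrin of myeloid cells, by 3.51 in males (adjusted p = 2.27e-08), and Mertk, a receptor for dying cells, changed by -0.59 and -0.72. Fcgr1 was at 2.73 without FeAAD5 and Itgam at 2.92 without MaAAD7, and both passed. Ctss and Ctsc were highest in the libraries with the highest sums, whereas MaAAD1 and FeAAD6, with the most Ctsk, had sums of 1780 and 1859 CPM. In FeNonAD against FeCon 1 of the 13 markers was higher, at a median of 0.36 and beside 6.87% of all genes. In MaNonAD against MaCon edgeR called none, at a median of 0.73 and beside 0.443% of all genes. In bulk tissue, fewer cells of a type and less RNA per cell cannot be told apart, and the part of macrophage content in the cathepsin changes was not tested.

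**Figure D5:**
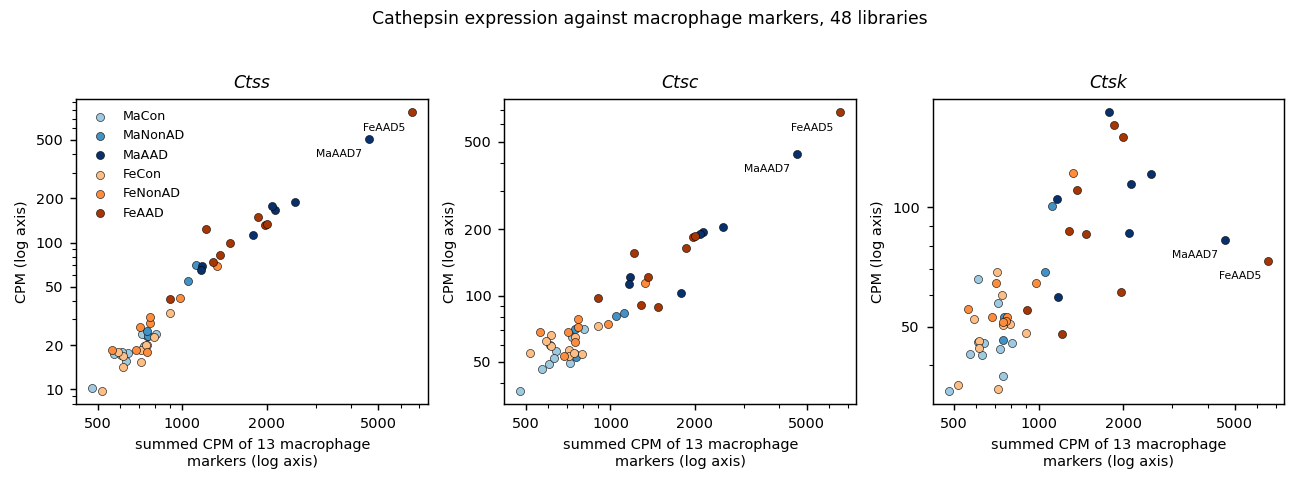
The summed CPM of 13 macrophage markers is plotted against the CPM of Ctss, Ctsc and Ctsk for the 48 libraries, both on log axes, with points coloured by group. Ctss and Ctsc line up along the marker sum with FeAAD5 and MaAAD7 at the upper end, and Ctsk scatters, with its highest libraries MaAAD1 and FeAAD6 at sums of 1780 and 1859 CPM.

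The other cell type markers gave the following counts in FeAAD against FeCon and MaAAD against MaCon, with the largest changes named. Monocyte markers were higher for 5 and 6 of 6, led by Chil3 at 4.28 in females and the chemokine receptor Ccr2 at 4.61 in males. Dendritic cell markers were higher for 6 and 6 of 8, led by Cd209a at 3.80 and Flt3 at 3.86, with Siglech lower in males at -1.0004. B cell markers were higher for 5 and 3 of 5, led by Cd79b at 3.09 and 1.76. Neutrophil markers were higher for 5 and 4 of 6 with 1 lower in males, led by S100a8 at 6.50 in females and Cxcr2 at 4.48 in males. Chil3, Cd209a, Flt3, Cd79b, S100a8 and Cxcr2 had mean levels under 1 CPM in the controls of these comparisons. The neutrophil sum was 882 CPM in FeAAD5, 237 in MaAAD7 and 201 in FeAAD9 and at most 15.0 in any control, and Ly6g was at 0 in every FeNonAD library. Without FeAAD5 S100a8 stood at 4.02 (adjusted p = 0.000368), Chil3 at 2.57 (adjusted p = 0.00232) and 4 neutrophil markers were higher. Without MaAAD7 Cxcr2 stood at 3.07 (adjusted p = 0.0068), Ccr2 at 3.97 and Siglech at -0.88 (adjusted p = 0.0709), and 2 neutrophil, 4 monocyte and 2 B cell markers were higher. T and NK cell markers were higher for 1, Cd2 at 0.99, and 0 of 8, thymocyte markers for 0 and 0 of 5, and mast cell markers for 1 and 1 of 5, the growth factor receptor Kit at 1.01 and 0.74. Cd2 stood at 0.83 (adjusted p = 0.0799) without FeAAD5.

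All 8 smooth muscle markers were lower in both sexes, with medians of -1.01 and -1.06 and the largest falls for desmin (Des) at -1.38 in females and the coactivator Myocd at -1.22 in males. Fibroblast markers were higher for 1 and 2 of 6 and lower for 2 and 1, with Lum, a collagen-binding proteoglycan, at 1.11 and 1.61 and Clec3b at -1.08 and -0.81. Endothelial markers were higher for 2 and 2 of 7, led by the receptor Tie1 at 0.44 and the cadherin Cdh5 at 0.57, with Pecam1 lower in females at -0.70. Erythroid markers were higher for 5 and 0 of 5, led by Alas2 at 3.90, and their sum reached 26918 CPM in FeAAD2. Heart muscle markers were lower for 7 and 1 of 10, led by Myl3 at -3.64 and Ryr2 at -0.82, skeletal muscle markers for 2 and 0 of 4, led by Acta1 at -1.62, and adipocyte markers for 1, Lep at -1.33, and 0 of 6. The control FeCon10 held 716 CPM of heart markers against a FeCon median of 147, and 61.2 of skeletal muscle markers against 11.1. The part of FeCon10 in these falls was not tested. Smooth muscle markers were lower for 7 of 8 without FeAAD5 and for 7 of 8 without MaAAD7. Without FeAAD5 the calls of Acta1 (adjusted p = 0.0644) and Lep (adjusted p = 0.0563) were lost and 5 heart markers were lower, and without MaAAD7 those of Clec3b (adjusted p = 0.0762) and Ryr2 (adjusted p = 0.0502) were lost. Without MaAAD7 1 heart marker was still lower in males, and the heart median went from -0.02 to -0.99. There 1 of 4 skeletal muscle markers was lower. The part of any of these cells in the cathepsin values was not tested.

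The genes whose profile over the 48 libraries was most like that of each member were found by the root mean square distance between z-scored log2(CPM + 1) profiles among 13701 genes, on which unrelated profiles lie 1.41 apart. These libraries share their groups and depth, so the distances are descriptions. For Ctss the nearest were Cd300c2, a myeloid surface receptor, at 0.173, and Otulinl at 0.185. For Ctsc they were Btk, a kinase of B cells and myeloid cells, at 0.237, and Sirpa, a myeloid inhibitory receptor, at 0.262. For Ctsk they were C1qtnf5, a secreted protein of the C1q family, at 0.319, and Gal3st1 at 0.418. After removal of the group means C1qtnf5 was still the nearest to Ctsk at 0.412 and Btk to Ctsc at 0.382, while Lyz2, the macrophage lysozyme, was nearest to Ctss at 0.295.

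For the other members the distances to the nearest genes were larger than for Ctss. Ctsa was nearest to Grn, the precursor of granulins, at 0.393 and Akr1a1 at 0.409. Ctsb was nearest to Ifi30, a lysosomal thiol reductase, at 0.395 and Cstb, the inhibitor cystatin B, at 0.453, and Ctsl to Litaf at 0.452 and Ifi30 at 0.509. Ctsd was nearest to Cyba, a subunit of the NADPH oxidase, at 0.463 and Coro1b at 0.528. Ctsh was nearest to Gpx7 and Sh3bgrl3, both at 0.513, and Ctsz to Sh3bgrl3 at 0.390 and Atox1, a copper chaperone, at 0.394. After removal of group means the nearest were Akr1a1 to Ctsa, Ifi30 to Ctsb and Ctsl, Ftl1 to Ctsd, Gm2a to Ctsh and Blvrb to Ctsz. Without FeAAD5 and MaAAD7 the nearest gene over the remaining libraries was the same for 5 of 9 members, Ctsa, Ctsb, Ctsc, Ctsk and Ctsl. Their distances were then 0.433, 0.613, 0.285, 0.311 and 0.527 in that order, with the widest move for Ctsb, from 0.395. After removal of group means the nearest gene was the same for 4, Ctsa, Ctsc, Ctsd and Ctsk, and became Lgmn for Ctsb, Tpm3 for Ctsl, Laptm5 for Ctss, Crtap for Ctsh and Pih1d1 for Ctsz. Among the members themselves, Ctsc and Ctss were the closest pair at 0.299 and Ctsd and Ctsz the next at 0.468, whereas Ctsk lay between 0.760 and 1.11 from every other member, including its neighbour on chromosome 3.

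The other cathepsin genes did not share one direction. Of 4 tested in this group, Ctsw, a protease of cytotoxic lymphocytes, was higher by 2.08 (adjusted p = 0.000692) in FeAAD and 1.58 (adjusted p = 0.0115) in MaAAD, though at a mean level under 1 CPM in these 4 groups. Ctsf fell by 0.58 (adjusted p = 0.00601) and fell by 0.52 (adjusted p = 0.0272), and Tinagl1, a secreted relative without protease activity, fell by 0.90 (adjusted p = 1.87e-05) and fell by 0.76 (adjusted p = 0.000682). Ctso did not pass, at 0.06 and 0.11, and Ctsf was at -0.42 (adjusted p = 0.0918) in males without MaAAD7. In these comparisons 20.6% and 16.1% of all genes were lower.

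Among 13 tested inhibitors of cathepsins, 5 were higher and 1 lower in FeAAD, and 4 were higher and 0 lower in MaAAD, with medians of 0.16 and 0.37. Cystatin C, encoded by Cst3 and the main secreted inhibitor, was abundant and nearly level, at 1478 CPM in FeCon and 1474 in FeAAD (log2 fold change -0.00, adjusted p = 0.989), and its change was -0.02 (adjusted p = 0.95) in males. The largest rise was that of Serpina3g, a serpin that inhibits cathepsins, by 2.51 (adjusted p = 0.000632) in females and 2.72 (adjusted p = 0.000487) in males, at mean levels of 2.60 and 3.06 CPM. Ctla2a, which resembles a cathepsin propeptide and inhibits cathepsin L, was higher by 1.14 (adjusted p = 0.000128) and 1.27 (adjusted p = 9.15e-05). Cstb was higher by 0.70 (adjusted p = 0.00561) in females and stood at 0.51 (adjusted p = 0.0717) in males, with 0.29 (adjusted p = 0.122) in females without FeAAD5. Ahsg, a plasma protein of the cystatin family, fell by 1.02 (adjusted p = 0.00167) in females and stood at 0.18 (adjusted p = 0.654) in males.

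Of 11 genes for processing and sorting of cathepsins, 3 were higher and 3 lower in FeAAD and 3 higher and 2 lower in MaAAD. Lgmn, which encodes legumain, the protease that matures several cathepsins, had the largest rise, by 1.13 (SE 0.19, adjusted p = 4.87e-06) and 1.26 (SE 0.20, adjusted p = 2.77e-06). Igf2r, the large mannose 6-phosphate receptor, was higher by 0.73 and 0.46, and Gnptab, which starts the mannose 6-phosphate tag, by 0.36 and 0.50. Sorl1 and Sort1, receptors of the sortilin type, changed by -0.73 and -0.40 in females and by -0.66 and -0.57 in males. The third to fall in females was Scarb2, a lysosomal membrane receptor, at -0.73 (adjusted p = 3.4e-06) against 0.26 (adjusted p = 0.108) in males, and the test of that sex difference gave 0.99 (adjusted p = 0.00241). FeCon held 433 CPM of Scarb2 and the other groups named here, MaCon, FeAAD and MaAAD, held 227, 261 and 272. Igf2r, Gnptab and Sort1 are named here because they complete these small counts, and they were chosen after their values were seen.

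Of 42 other hydrolases and helpers, 20 were higher and 4 lower in FeAAD and 17 higher and 5 lower in MaAAD, with medians of 0.22 and 0.19, beside 0.36 and 0.40 for the 9 members, and 0.23 beside 0.21 in females without FeAAD5. Without FeAAD5 19 were higher in females, and without MaAAD7 15 were higher and 2 lower in males. The largest rise was that of Lgmn, as given above, and the largest fall that of Hyal1, a hyaluronidase, with -0.91 (adjusted p = 0.000732) and -0.77 (adjusted p = 0.0097). Of 28 membrane proteins and proton pump subunits, 5 and 8 were higher and 4 and 1 lower, with medians of 0.06 and 0.04, and 3 were higher in females without FeAAD5 with a median of -0.06. Without MaAAD7 6 were higher in males. The largest rise there was Atp6v0d2, a pump subunit of osteoclasts and macrophages, by 1.95 and 2.12 at mean levels under 2 CPM, and Atp6v0a1 had the largest fall in males, at -0.49. Of the 4 MiT/TFE factors that drive lysosomal genes, Tfec was higher by 2.37 (adjusted p = 0.00028) and 2.03 (adjusted p = 0.00266), and by 1.37 (adjusted p = 0.0133) in females without FeAAD5, Tfe3 by 0.31 (adjusted p = 0.00151) in males, and Tfeb and Mitf did not pass in either sex. Tfec had mean levels of 0.757 CPM in FeCon and 3.98 in FeAAD, and of 0.990 in MaCon and 4.06 in MaAAD.

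Because Ctsk is best known from osteoclasts, 13 tested genes of that programme were compared. In FeAAD 6 were higher and 3 lower, and in MaAAD 5 higher and 3 lower, with medians of 0.54 and 0.42. Mmp9, a gelatinase, had the largest rise in females, by 2.16 (adjusted p = 0.00454), and Atp6v0d2 in males, by 2.12. Without FeAAD5 Mmp9 stood at 0.64 (adjusted p = 0.343) and 4 of these genes were higher. Without MaAAD7 the male median was 0.23 and 2 of these genes were lower. Acp5, the tartrate-resistant phosphatase that marks osteoclasts and was picked after its values were seen, did not pass, at 0.54 (adjusted p = 0.124) and 0.51 (adjusted p = 0.19). Tnfrsf11a, the receptor RANK, had the largest fall in females at -0.78 and Ckb, a creatine kinase, in males at -0.98.

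Genes for the extracellular substrates rose in the same aortas. Of 10 elastic fibre and fibrillar collagen genes, 9 were higher in FeAAD and 8 in MaAAD against the controls, with medians of 0.93 and 0.86, and none was lower. Eln, which encodes tropoelastin and was also picked after its values were seen, was at 10936 CPM in FeCon and 29243 in FeAAD and rose by 1.42 (SE 0.23, adjusted p = 1.97e-06), and by 1.22 (SE 0.24, adjusted p = 6.52e-05) in males. Fbn2, a fibrillin of growing vessels, had the largest rise, by 5.03 (adjusted p = 1.57e-05) and 4.06 (adjusted p = 0.000397). Its mean levels were low, at 0.131 CPM in FeCon and 4.52 in FeAAD, and 0.158 in MaCon and 2.77 in MaAAD. In FeNonAD against FeCon, where no cathepsin passed, 7 of these 10 genes were higher with a median of 0.49, beside 6.87% of all genes. In MaNonAD against MaCon edgeR called none, at a median of 0.34 and beside 0.443% of all genes. The test of the sex difference in this response passed for 0 of the 10 genes.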

How the data were processed

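RNA-seq of 48 mouse thoracic aortas, 1 library per mouse, was used in 6 groups taken from the sample labels. Values are RSEM expected counts per gene as the authors deposited them, made with RSEM 1.3.1 and Bowtie2 on GRCm39 according to the submitters' processing notes, from strand-specific mRNA libraries of saline-perfused aortas. RSEM shares reads between genes by estimation, so that 4.99% of all values were not whole, and all were rounded here. Library totals ranged from 13548003 to 17281262 counts (median 15681334), and no 2 libraries were identical.

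Genes passing filterByExpr (14431) were tested with edgeR 4.0.16 (quasi-likelihood, robust, TMM scaling, R 4.3.3) in 1 model of 6 group means over all libraries, with Benjamini-Hochberg adjustment over all tested genes. Passing means an adjusted p under 0.05, and a DEG also changed by 1 or more on the log2 scale, as in the study. The study used DESeq2, which was run here as an alternative (1.42.0). Standard errors and 95% intervals were derived from the fold change and its F statistic and are approximate. The pipeline was tested on simulated data. Figures and profile distances used Python 3.11.15 (numpy 2.4.6, pandas 2.3.3, matplotlib 3.10.9). p-values measure the spread between mice, and each AAD or NonAD group was formed by outcome.

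Levels between genes used the longest transcript of GENCODE M21 (GRCm38), matched by symbol, as were positions, and promoters came from a RefSeq table on GRCm38.p6. Both differ from the build of the counts, and no coordinate was converted. The members and all gene lists were chosen with earlier results of these data known. All 9 members are described in each comparison between treatments, and between the sexes as ranges. From each other list the largest rise and the largest fall that passed in FeAAD against FeCon and MaAAD against MaCon are named, at a mean of at least 10 counts per library, besides the other cathepsins and inhibitors. For each member the 2 genes with the nearest profile are named, and the 1 nearest after removal of group means. For the members, a library is named where leaving it out changes a call. For the other lists only FeAAD5 or MaAAD7 was left out, in AAD against control. Exceptions are marked in the text.

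The alternatives were DESeq2, its size factors in edgeR, library totals without TMM, no filter, no robust estimation, a fit of the compared groups alone, the replicate number as a block, each library left out in turn, other gene lengths (union of exons, CCDS), CPM on library totals for levels, and medians for means. The CCDS length, other lengths for the order of members within a library, and the nearest genes, gene lists and summed member levels without libraries that stood apart, were added after the data were seen.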

Additional observations from a re-analysis of the deposited data

Results flagged for a closer look

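For each member and each group of 4 to 10 libraries, the highest and lowest values were compared with the rest by Dixon's gap test, and 13 of 54 sets held a value past the 95% limit, where chance gives about 1 in 20. FeAAD5 gave 8 of these, with 458 CPM for Ctsa, 3617 for Ctsb, 679 for Ctsc, 2615 for Ctsd, 365 for Ctsh, 1233 for Ctsl, 769 for Ctss and 448 for Ctsz, and Ctsk was the member for which it was not apart. MaAAD7 was apart for Ctsc at 441 CPM and Ctss at 507 CPM. FeNonAD8 was apart for Ctsc at 114 CPM, Ctsk at 122 CPM and Ctss at 69.5 CPM. The sets share libraries, so these flags are not independent of each other. The same libraries had the highest macrophage marker sums of their groups, at 6591, 4616 and 1324 CPM, and whether this accounts for the values was not tested.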

How the results depend on the processing

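Ctss, Ctsc and Ctsk passed in FeAAD against FeCon under 26 of 26 alternatives and in MaAAD against MaCon under 24 of 24, with Ctss between 2.46 and 3.37 in females and 2.80 and 3.45 in males. A fit of the compared groups alone gave 1 passing member in FeNonAD against FeCon (Ctss), 1 in MaNonAD against MaCon (Ctss, also 1 DEG), 3 in FeAAD against FeNonAD, 1 in MaCon against FeCon (Ctsl) and 4 in FeAAD against FeCon. Over all genes that fit called 2249 of 13404, 274 of 13757, 1257 of 13655, 1872 of 13293 and 4791 of 13500 in that order. In MaAAD against MaNonAD, DESeq2, DESeq2 size factors, library totals and no robust estimation each gave 2 passing members and 2 DEGs, Ctsc and Ctss, in place of 0. Over all genes these settings called 781, 212, 266 and 117 in that order, with 518, 168, 212 and 99 DEGs. DESeq2 tested 14642 genes there and edgeR 14431. Leaving out 1 library at a time gave 2 to 7 passing members and 1 to 2 DEGs in FeAAD against FeNonAD, 0 to 2 of both in MaAAD against MaNonAD, 4 to 7 passing in FeAAD against FeCon, 5 to 8 in MaAAD against MaCon, and 0 to 1 for the sex difference in AAD against control. Library totals gave 9 and 8 passing members in the female and male AAD against control comparisons, where 3979 and 3181 of 14431 genes were called higher. Of 1242 member values under alternatives, 21 had the opposite sign, and 0 of them passed in either fit. They were Ctsa in FeNonAD against FeCon (0.025 with library totals, -0.091 to 0.00019 leaving out 1 library), Ctsd there (0.034, and -0.070 to 0.0041), Ctsb there (-0.019 to 0.036 leaving out 1 library) and Ctsa in MaNonAD against MaCon (0.012 with library totals, 0.10 with the replicate block, -0.080 to 0.0514 leaving out 1 library). Same-numbered libraries did not deviate together, with 9 of 40 pairs correlated above 0.1 (r from -0.53 to 0.43), so numbers were not read as pairing; the replicate block gave 8 passing members in MaAAD against MaCon and 5 in FeAAD against FeNonAD. The rank by level per kb was the same for 7 of 9 members with exon unions, 6 with CCDS lengths, 6 with medians and 9 with library totals, and the order of Ctss and Ctsc in controls turned with exon unions. The cause of these shifts was not tested. The 4 MaNonAD libraries limit the male NonAD comparisons, where the intervals of Ctss and Ctsc are the widest among the comparisons within a sex.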
